A study of Mus musculus with 2 samples.

Results

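The 7 genes described here, Rxrg, Thrb, Rora, Rorb, Sall3, Nr2f1 and Nr2f2, encode transcription factors known for the making of cones and for the choice of opsin within them, and were chosen by name out of 32227 genes measured. They were followed in 2 libraries of nuclei from whole retinas of C57 BL/6J mice at postnatal day 21, 1 labelled Cre− (genotype WT) and 1 labelled Tet tcKO. Tet tcKO mice carried loxP-flanked alleles of Tet1, Tet2 and Tet3, and the Cre-GFP transgene driven by Chx10, which acts in dividing retinal progenitors and can be mosaic. Cre+ breeders were crossed among themselves so that each mutant had both copies of the transgene, whereas controls came from Cre− breeders. For each genotype, retinas of 2 dissociations were pooled into 1 library, so no difference below could be checked against replicates, no p-value is given, and animal, pool and library cannot be told apart from genotype.

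Mouse cones make a short-wavelength opsin from Opn1sw, a middle-wavelength opsin from Opn1mw, or both. Thyroid hormone, acting through the β2 form of the thyroid hormone receptor that Thrb encodes, turns on Opn1mw and holds back Opn1sw in dorsal cones. Retinoid X receptor γ, from Rxrg, is a partner of other nuclear receptors and a marker of cones, and helps to hold back Opn1sw. RORβ and RORα, orphan receptors from Rorb and Rora, act earlier on photoreceptor differentiation and on opsin genes, the zinc-finger factor SALL3 promotes Opn1sw, and the COUP-TF receptors from Nr2f1 and Nr2f2 pattern the opsins along the dorsoventral axis.

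The Cre− library held 7357 nuclei and 11510585 UMIs, and the Tet tcKO library 6766 nuclei and 16590747 UMIs, with medians of 1107 and 1836.5 UMIs per nucleus. The 13 mitochondrial genes took 5.47% of Cre− and 1.76% of Tet tcKO UMIs, and 1 cell barcode occurred in both libraries. The deletion itself was not visible in whole-gene counts of 3′ tags, which need not lie in the deleted exons. Tet1 stood at 50.2 and 61.2 CPM (UMIs per 1000000 in the library), Tet2 at 105 and 139, and Tet3 at 180 and 174, in Cre− and Tet tcKO, respectively. Each cluster's 10 leading genes were checked against cell type markers, and a cluster passed unless another class had more markers there than its own. Amacrine, horizontal and retinal ganglion cell (RGC) annotations passed. By contrast, 2 of 24 photoreceptor clusters (25, led by haemoglobin genes, and 32), 4 of 9 bipolar and 2 of 3 Müller clusters did not. A pass is weak where no marker was among the 10, as in amacrine clusters 12, 13 and 27, with 0 of their own and 0 of another class. The median log2 ratios of amacrine markers in these 3 clusters, relative to all other nuclei, were 0.89, 0.35 and 0.62. The 264 nuclei of cluster 11, nearly all of the Cre− nuclei annotated as cones, went against their label. Relative to all other nuclei, the median log2 ratio of rod markers in cluster 11 was 1.38 and that of cone markers -0.73. Tet tcKO had 6 nuclei annotated as rods and 3225 annotated as cones. Rods and cones were therefore pooled for the comparison of genotypes, leaving 5479 Cre− and 3231 Tet tcKO photoreceptor nuclei from clusters that the libraries hardly shared.

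The promoters of the genes gave the sequence context. Windows of 300 bases, from 250 before to 50 after an annotated start, were found in RefSeq (from assembly GRCm38.p6) for 6 of the 7 genes, 10 windows in all, and each matched GRCm39, the build of the deposited counts, at 1 place. Sall3 had none in the table. Rxrg is shown because its counts differed most between the libraries, and Thrb and Nr2f2 because their windows held a motif searched for. Capitals mark TAATCC, a core bound by CRX and OTX2, and AGGTCA, the half-site of nuclear receptors, on either strand. No matches overlapped. Coordinates are GRCm39.
Rxrg, first window, chr1:167425681-167425980, plus strand: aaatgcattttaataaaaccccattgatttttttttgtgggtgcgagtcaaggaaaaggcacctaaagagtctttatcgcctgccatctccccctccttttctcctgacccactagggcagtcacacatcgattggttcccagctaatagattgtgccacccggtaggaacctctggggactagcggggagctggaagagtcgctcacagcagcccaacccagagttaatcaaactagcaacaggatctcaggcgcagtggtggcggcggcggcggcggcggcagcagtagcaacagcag
Rxrg, second window, chr1:167445584-167445883, plus strand: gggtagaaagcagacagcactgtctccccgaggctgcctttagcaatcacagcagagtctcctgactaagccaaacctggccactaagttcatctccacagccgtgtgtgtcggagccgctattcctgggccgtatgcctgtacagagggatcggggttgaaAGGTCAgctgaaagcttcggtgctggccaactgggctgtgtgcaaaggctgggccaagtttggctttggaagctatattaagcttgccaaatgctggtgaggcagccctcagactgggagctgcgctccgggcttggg
Thrb, first window, chr14:4808687-4808986, minus strand: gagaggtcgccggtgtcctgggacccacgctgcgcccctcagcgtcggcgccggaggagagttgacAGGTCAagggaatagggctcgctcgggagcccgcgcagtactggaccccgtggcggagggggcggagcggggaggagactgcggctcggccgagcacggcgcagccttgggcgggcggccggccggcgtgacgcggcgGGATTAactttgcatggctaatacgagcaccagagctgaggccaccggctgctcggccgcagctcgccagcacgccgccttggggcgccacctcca
Nr2f2, chr7:70016445-70016744, minus strand: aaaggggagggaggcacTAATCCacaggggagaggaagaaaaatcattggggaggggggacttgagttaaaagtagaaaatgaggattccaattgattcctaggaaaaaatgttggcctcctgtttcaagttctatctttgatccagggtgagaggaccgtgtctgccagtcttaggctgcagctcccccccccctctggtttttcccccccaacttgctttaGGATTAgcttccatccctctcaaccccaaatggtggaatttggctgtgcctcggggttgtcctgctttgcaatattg
TAATCC occurred once in the first Thrb window and at 2 places in that of Nr2f2, hence in 2 of the 10 windows, against 7.06% of 32851 mouse promoter windows. AGGTCA occurred in the second Rxrg window and in the first Thrb window, also 2 of 10, against 16.3% of all windows. CpG dinucleotides, the substrate of TET enzymes when methylated, varied widely among these promoters. The Rxrg windows held 13 and 9, the Thrb windows 37 and 4, and the Nr2f2 window 2, against a median of 7 over all windows. The single Rora window held 28, the Rorb windows 20 and 5, and the Nr2f1 windows 23 and 4, so that the second window of Thrb, Rorb and Nr2f1 lay below the median. Methylation was not part of the files analysed here.

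To ask how the loss of TET enzymes altered the 7 transcripts in the retina as a whole, UMIs were summed over all nuclei of a library. All 7 genes had a higher CPM in Tet tcKO than in Cre−, by 1.17-fold to 4.75-fold, and 2 of the 7, Rxrg and Sall3, were at least 2-fold higher. Among 11158 genes at 10 CPM or more in a library, 3.18% were 2-fold or more higher and 2.48% lower. The median of the 7 log2 ratios was 0.57 and that of all these genes 0.15, so that differences below should be read against a typical gene that itself lay slightly above 0. Whole-retina sums cannot tell more nuclei of a type from more RNA per nucleus.

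Rxrg had 79 UMIs in Cre−, or 6.86 CPM, and 541 UMIs in Tet tcKO, or 32.6 CPM. Its log2 ratio was 2.25 (exact 95% interval 1.91 to 2.61, for counting error only, as in all intervals here), above that of 99.6% of genes. Sall3 had 86 UMIs (7.47 CPM) in Cre− against 346 (20.9 CPM) in Tet tcKO. These low counts gave a log2 ratio of 1.48 (1.14 to 1.84), above 98.9% of genes. The receptors with which RXRs pair differed less. Thrb stood at 332 CPM in Cre− against 531 CPM in Tet tcKO, for a log2 ratio of 0.68 (0.62 to 0.73).

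The COUP-TF genes were near each other. Nr2f1 had 274 UMIs (23.8 CPM) in the control and 586 (35.3 CPM) in the mutant, with a log2 ratio of 0.57 (0.36 to 0.78), and Nr2f2 had 233 UMIs (20.2 CPM) and 480 (28.9 CPM), for a log2 ratio of 0.52 (0.29 to 0.75). Of the ROR genes, Rorb stood at 494 and 643 CPM, with a log2 ratio of 0.38 (0.33 to 0.43). Rora, the most abundant of the 7, had 2315 CPM in Cre− against 2700 CPM in Tet tcKO, for a log2 ratio of 0.22 (0.20 to 0.24), only 0.08 above the median gene. Intervals of Rora and Rorb are narrow because of their counts, 26645 and 44793 UMIs for Rora, and say nothing of variation between animals. When a nucleus counted at most once for a gene, the log2 ratios of Rora and Rorb turned to -0.48 and -0.10.

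The genes differ widely in length, and nuclear RNA holds introns, so levels are compared between genes per kb of gene span. Rora extends over 735 kb (chr9:68561068-69295528, GRCm39, plus strand) and Thrb over 380 kb (chr14:4429815-4809435, minus strand), whereas Nr2f1 extends over 11.5 kb (chr13:78337092-78348578, minus strand). Rorb (chr19:18907969-19088585, minus strand), Rxrg (chr1:167425673-167467193, plus strand) and Nr2f2 (chr7:70001692-70016519, minus strand) lie between. Per kb of gene span, the Cre− levels of Rora, Rorb and Nr2f1 were 3.15, 2.73 and 2.07 CPM, so genes far apart in CPM were within a factor of 2 on this scale. Per kb of exon they stayed far apart, at 160, 44.5 and 4.11 CPM. Counts of 3′ tags need not grow with gene span, so how near the genes lie depends on the scale. Nr2f2 had 1.37, Thrb 0.87, Sall3 0.36 and Rxrg 0.17 CPM per kb of span in Cre−, and Rxrg reached 0.79 in Tet tcKO.

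Genes on the opposite strand overlap 4 of the 7, and the sources used here do not give whether counting used strand. At Nr2f1, 3110006O06Rik and A830082K12Rik together had 413 UMIs in Cre− against 804 in Tet tcKO, more than Nr2f1 itself. At Nr2f2, B130024G19Rik had 370 and 394 UMIs, while Gm48321 at Thrb (50 and 117) and Gm15511 at Rora (6 and 10) were small beside their partners. Nr2f1 and Nr2f2 values are thus less certain than their intervals say. Thrb counts cover the whole locus and do not separate the β2 form.

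**Figure D1:**
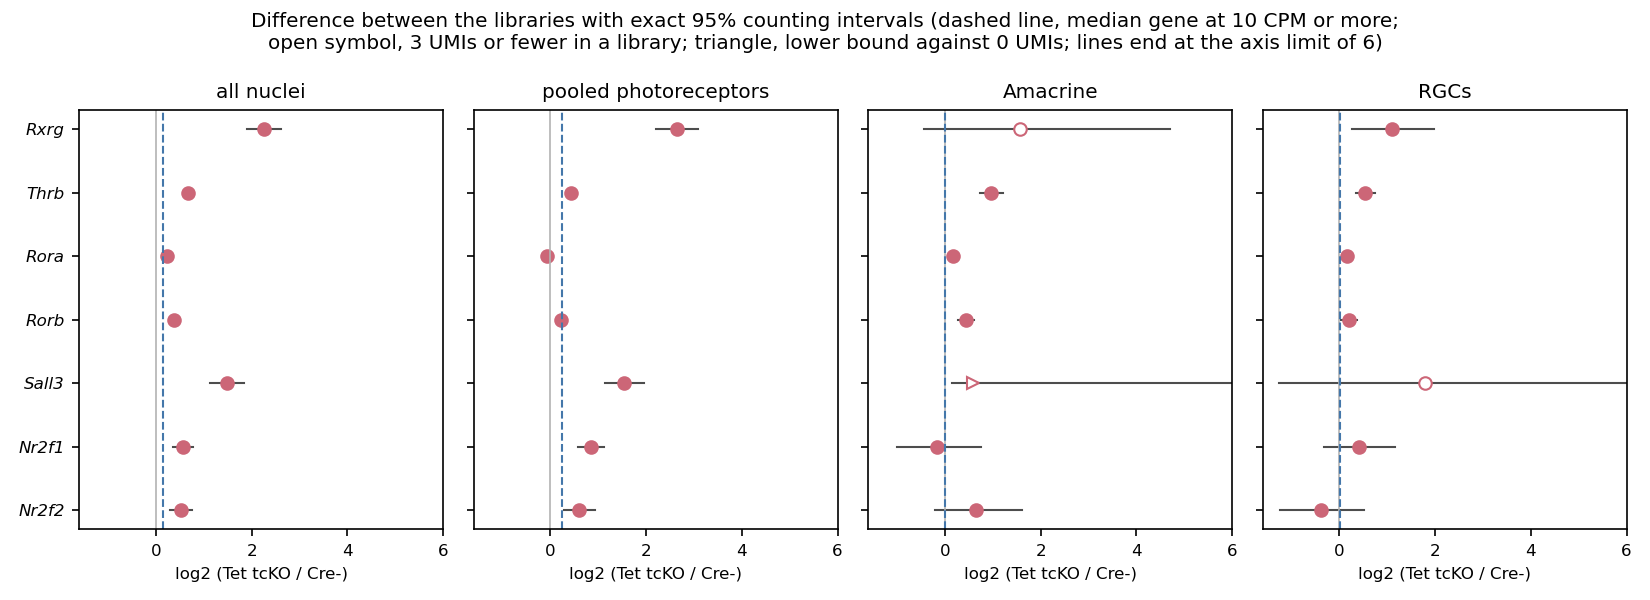
Log2 ratio of Tet tcKO over Cre− CPM (x axis) for the 7 genes (y axis) in all nuclei, pooled photoreceptors, amacrine cells and RGCs, with exact 95% counting intervals as lines and the median gene as a dashed line. Rxrg and Sall3 lie farthest to the right in all nuclei and in photoreceptors, at 2.25 and 1.48 and at 2.64 and 1.54, and open symbols rest on 3 UMIs or fewer in a library.

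Within pooled photoreceptors the same 2 genes stood apart and the other 5 were closer to, or below, a typical gene. Rxrg went from 51 UMIs (6.73 CPM) in Cre− to 310 (41.8 CPM) in Tet tcKO, for a log2 ratio of 2.64 (2.21 to 3.09). Sall3 went from 69 UMIs (9.11 CPM) to 196 (26.5 CPM), for a log2 ratio of 1.54 (1.14 to 1.96). Of 11377 genes, 6.67% were 2-fold or more higher and 2.58% lower, with a median log2 ratio of 0.24. When each nucleus was thinned to 500 UMIs, the log2 ratio of Sall3 was 0.94, under the 2-fold limit.

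Nr2f1 had 174 UMIs (23.0 CPM) in Cre− against 307 (41.4 CPM) in Tet tcKO photoreceptors, for a log2 ratio of 0.85 (0.58 to 1.13). For Nr2f2, 129 UMIs (17.0 CPM) and 192 (25.9 CPM) gave 0.61 (0.28 to 0.94), with a lower bound just above the median gene. The thyroid hormone receptor gene moved little here. Thrb stood at 349 and 468 CPM, for a log2 ratio of 0.42 (0.35 to 0.50), or 0.19 above the median gene. Rorb, at 482 and 558 CPM, was level with the median gene at 0.21 (0.15 to 0.28). Rora was slightly lower in Tet tcKO photoreceptors, at 1897 and 1800 CPM, for a log2 ratio of -0.08 (-0.11 to -0.04), and 0.31 below the median gene.

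The libraries' scaling bears on these small differences. Under TMM scaling the median gene in pooled photoreceptors lay at 0.04 instead of 0.24, and 415 genes were 2-fold higher and 456 lower, against 759 and 293 by total UMIs. Over all nuclei the split was 263 higher and 356 lower under TMM against 355 and 277, with the median gene at 0.04. Rxrg and Sall3 kept their place, 2 of 7 higher and 0 lower, under TMM and under median-of-ratios scaling in both populations. Without clusters 25 and 32, a restriction chosen after seeing the data, the log2 ratios were 2.60 for Rxrg, 1.55 for Sall3 and 0.43 for Thrb.

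Restricting photoreceptors to nuclei annotated as cones raised the point value of the Rxrg log2 ratio, but its interval held the pooled value of 2.64. The Cre− nuclei so annotated are nearly all of cluster 11, whose markers went against the label. The 265 Cre− nuclei with that annotation held 4 Rxrg UMIs (3.88 CPM) and the 3225 Tet tcKO nuclei 310 (41.9 CPM), for a log2 ratio of 3.43 (2.06 to 5.32). The Cre− nuclei had a median of 3736 UMIs, and the Tet tcKO nuclei 1715. In the same nuclei the cone arrestin gene Arr3 stood at 880 and 2003 CPM, the cone transducin gene Gnat2 at 88.2 and 515 CPM, and the rod gene Nrl at 550 and 221 CPM. Both cone transcripts were thus higher with Rxrg and the rod transcript lower, and the part of this makeup in the Rxrg difference was not tested.

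Shares of nuclei with a UMI gave the same order at equal depth. After each nucleus was thinned to 500 UMIs, Rxrg was found in 22 of 5479 Cre− photoreceptors, 0.40% (exact 95% interval 0.25 to 0.61), and in 70 of 3231 Tet tcKO photoreceptors, 2.17% (1.69 to 2.73). In amacrine cells, taken as a comparison class, it was found in 0 of 403 Cre− nuclei (upper bound 0.91%) and in 8 of 1043 Tet tcKO nuclei, 0.77% (0.33 to 1.51). The Cre− photoreceptor share was thus within the amacrine bound, and the Tet tcKO share above the amacrine interval. In RGCs, Rxrg was found in 6 of 567 Cre− nuclei, 1.06% (0.39 to 2.29), and in 9 of 704 Tet tcKO nuclei, 1.28% (0.59 to 2.41). The Tet tcKO RGC interval held the photoreceptor share, so this share did not set photoreceptors apart from RGCs. Before thinning, median depths were 1046 and 1714 UMIs in photoreceptors and 1065 and 1736 in amacrine cells, and the photoreceptor shares were 0.93% and 9.01%. The Thrb share was 16.3% (15.3 to 17.3) in Cre− against 20.2% (18.9 to 21.7) in Tet tcKO photoreceptors, but 14.6% (11.3 to 18.5) and 21.1% (18.7 to 23.7) in amacrine cells. A UMI of Thrb thus did not set photoreceptors apart from amacrine cells in either library, and that share is not read as photoreceptor expression.

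**Figure D2:**
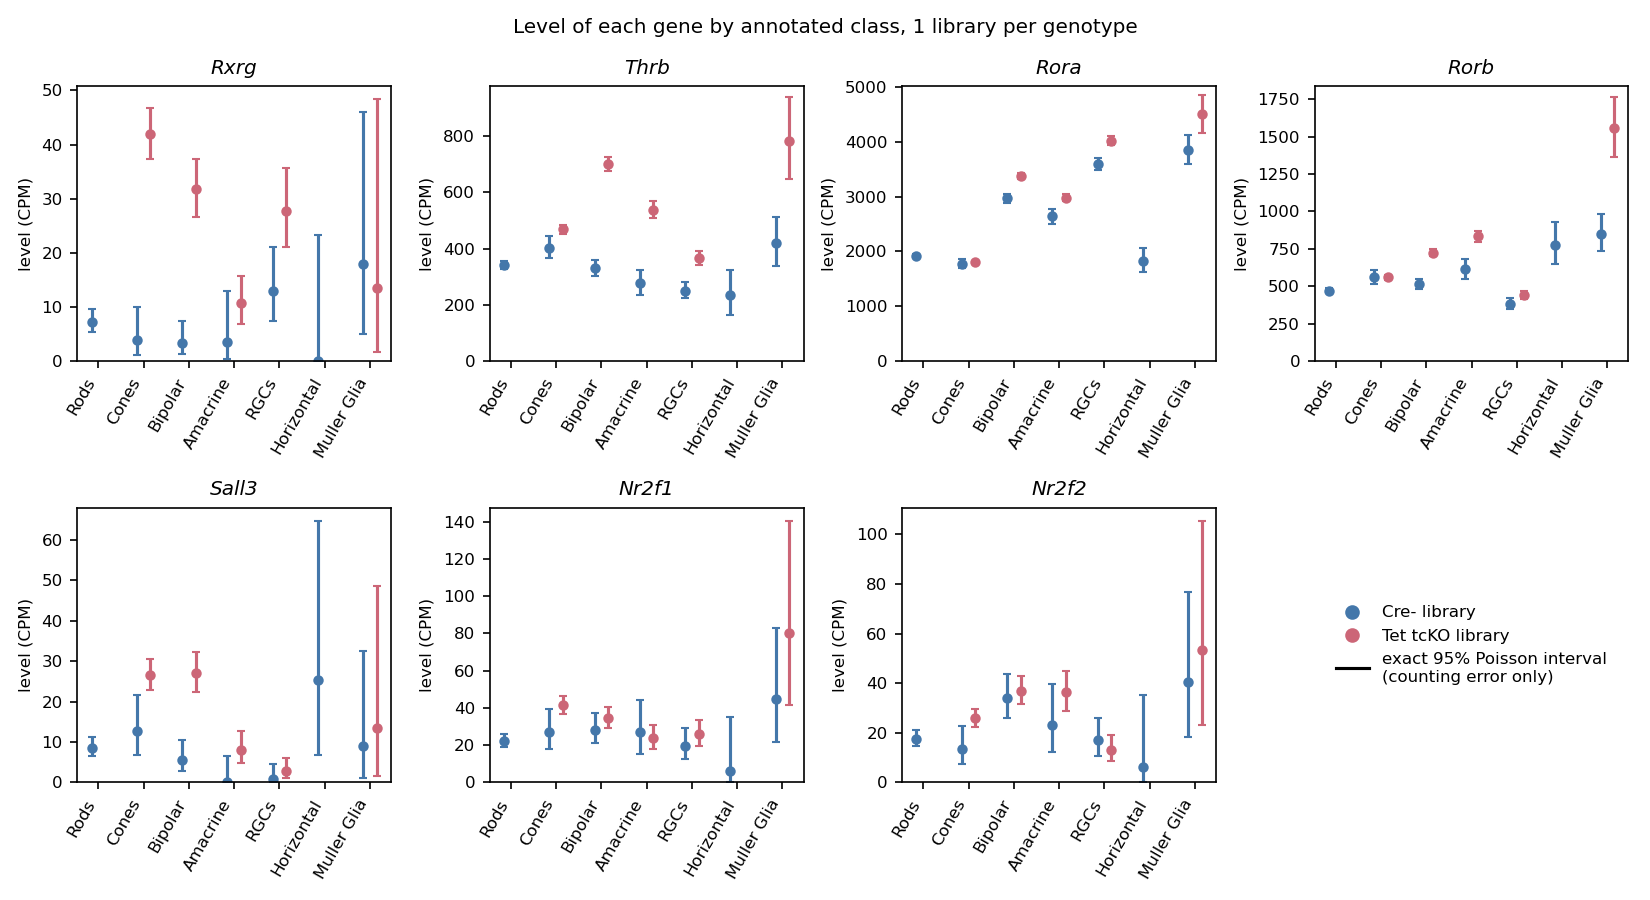
Level in CPM (y axis, from 0) of each of the 7 genes by annotated class (x axis) in the Cre− and Tet tcKO libraries, with exact 95% Poisson intervals, for classes with 50 nuclei or more. Rxrg and Sall3 reach 41.9 and 26.5 CPM in the Tet tcKO cone annotation and 31.7 and 27.0 CPM in the bipolar one, Sall3 stands at 25.3 CPM in Cre− horizontal cells from 4 UMIs, and Rora and Rorb are well above 0 in every class of both libraries.

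Across annotated classes, the genes followed different orders. The Cre− cone annotation is, but for 1 nucleus, cluster 11, whose rod markers were high and cone markers low, so its values below are named by that cluster and are not read as cone levels. In Tet tcKO, Rxrg was highest in cones (41.9 CPM), apart beyond counting error from bipolar nuclei (31.7 CPM), which did not differ beyond it from RGCs (27.7 CPM). Müller glia (13.4 CPM, 2 UMIs) and amacrine cells (10.7 CPM, 25 UMIs) followed. In Cre−, no neighbours in the order of Rxrg differed beyond counting error, from 18.0 CPM (4 UMIs) in Müller glia and 13.01 CPM (16 UMIs) in RGCs down to 3.40 CPM (6 UMIs) in bipolar nuclei and 0 UMIs in the 90 horizontal nuclei.

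Sall3 was led by horizontal cells in Cre−, at 25.3 CPM from 4 UMIs, followed by cluster 11 (12.6 CPM), Müller glia (9.00 CPM), rods (8.56 CPM) and bipolar nuclei (5.66 CPM), with no neighbours apart beyond counting error. It had 1 UMI in Cre− RGCs and 0 in 403 Cre− amacrine nuclei, where a count of 0 allows up to 5.37 CPM. In Tet tcKO, Sall3 was alike in bipolar nuclei (27.0 CPM) and cones (26.5 CPM) and lowest in RGCs (2.81 CPM). SALL3 is also known from horizontal cells.

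Thrb was spread over all classes. In Cre− it ran from 419 CPM in Müller glia and 403 CPM in cluster 11 to 234 CPM in horizontal cells, and the single step beyond counting error lay between cluster 11 and the rod annotation (340 CPM). In Tet tcKO, Müller glia (784 CPM) and bipolar nuclei (702 CPM) led, and amacrine cells (538 CPM), cones (468 CPM) and RGCs (365 CPM) followed, each apart from the next from bipolar nuclei on. Of the 5 classes of Tet tcKO, only RGCs were below cones for Thrb. Cones were also not the leading class for Rora and Rorb in Tet tcKO.

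Rora was highest in Müller glia, at 3852 CPM in Cre− against 4503 CPM in Tet tcKO, and next in RGCs, at 3592 and 4019 CPM. It was lowest in Tet tcKO in cones, at 1801 CPM, and in Cre− in cluster 11, at 1769 CPM, there not beyond counting error from its neighbour, horizontal cells. Rorb was likewise highest in Müller glia, at 851 and 1555 CPM, and lowest in RGCs, at 384 and 441 CPM, with horizontal and amacrine cells next to the top in Cre− and amacrine cells in Tet tcKO. For Nr2f1, no neighbours were apart beyond counting error in either library. Müller glia led at 45.0 and 80.4 CPM, from 10 and 12 UMIs, while cluster 11 of Cre− stood at 27.2 CPM and Tet tcKO cones at 41.5 CPM. Nr2f2 ran in Tet tcKO from 53.6 CPM in Müller glia (8 UMIs), 36.9 in bipolar nuclei and 36.3 in amacrine cells to 25.8 in cones and 13.1 in RGCs. Only 1 of 3 Müller clusters, cluster 37, passed the marker check, so these top ranks describe the annotation. Clusters 14 and 30 failed by 1 marker of another class against 0 of their own among the 10 leading genes. Müller markers were nevertheless high in all 3, with median log2 ratios of 1.09, 2.12 and 1.16 in clusters 14, 30 and 37, relative to all other nuclei.

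Amacrine cells and RGCs, whose annotations passed, could also be compared between genotypes. Most Cre− amacrine nuclei came from cluster 27 (256 of 403) and the largest Tet tcKO group from cluster 12 (357 of 1043), and Cre− RGCs came mostly from cluster 8 (394 of 567) while Tet tcKO RGCs came mostly from clusters 31, 15 and 2. Thrb stood at 276 CPM (154 UMIs) in Cre− against 538 CPM (1261 UMIs) in Tet tcKO amacrine cells, for a log2 ratio of 0.97 (0.72 to 1.22), and at 250 and 365 CPM in RGCs, a log2 ratio of 0.55 (0.35 to 0.74). Both exceeded the median gene, which lay at -0.01 and 0.02. Rxrg had 16 UMIs (13.01 CPM) in Cre− against 59 (27.7 CPM) in Tet tcKO RGCs, for a log2 ratio of 1.09 (0.27 to 1.99). In amacrine cells it had 2 and 25 UMIs, a log2 ratio of 1.58 (-0.43 to 4.70), which leaves the direction undetermined. Sall3 had 0 UMIs in Cre− against 19 in Tet tcKO amacrine cells. With 3 UMIs put in place of 0 it was 1.51-fold higher in Tet tcKO, and the exact lower bound of the log2 ratio was 0.15.

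Rorb was higher in Tet tcKO in both classes, at 614 and 835 CPM in amacrine cells (log2 ratio 0.44, 0.28 to 0.61) and 384 and 441 CPM in RGCs (0.20, 0.04 to 0.36). Rora had log2 ratios of 0.18 (0.10 to 0.26) and 0.16 (0.11 to 0.22). The intervals of Nr2f1 and Nr2f2 held 0 in both classes, where counts ran from 13 to 85 UMIs. Clusters with 50 or more nuclei of each library allowed a check within a cluster. In RGC cluster 31, Thrb stood at 236 and 514 CPM (log2 ratio 1.13, 0.47 to 1.86) and in amacrine cluster 13 at 301 and 748 CPM (1.31, 0.79 to 1.88), but in RGC cluster 2 at 243 and 235 CPM (-0.05, -0.39 to 0.30). The Thrb values of RGC clusters 31 and 2 thus lay apart, and the difference between these clusters was not tested. The Rxrg difference of all RGCs was not seen within either cluster beyond counting error. Rxrg had 6 and 14 UMIs in cluster 2, a log2 ratio of 0.50 (-0.97 to 2.16), and 2 and 13 UMIs in cluster 31, a log2 ratio of 0.24 (-1.90 to 3.43).

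Transcripts of photoreceptors occurred in the other classes too, and their levels were set beside those of the 7 genes. In Tet tcKO RGCs, Arr3 stood at 12.7% of its level in the library's photoreceptors (11.7 to 13.9), Opn1sw at 14.6% and Gnat2 at 11.9%. Sall3 stood at 10.6% (3.86 to 23.6) in these RGCs, within that range, while Rxrg stood at 66.1% (49.2 to 87.6). In Cre− RGCs the Rxrg level was 193% (103 to 344) of that in photoreceptors, against 16.3% for Arr3. In Tet tcKO amacrine cells, Rxrg stood at 25.5% (16.3 to 38.4) and Sall3 at 30.7% (18.1 to 49.2), against 18.1% for Arr3, 17.8% for Opn1sw and 15.8% for Gnat2. Thrb, Rora and Rorb, at 78.0% or more in both classes, lay far above the photoreceptor transcripts. The channel gene Cngb3 was higher than the other photoreceptor transcripts, at 18.5% in RGCs and 37.4% in amacrine cells. The Rxrg interval in RGCs lay above all of these values, and that in amacrine cells held those of Arr3, Opn1sw and Cngb3.

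**Figure D3:**
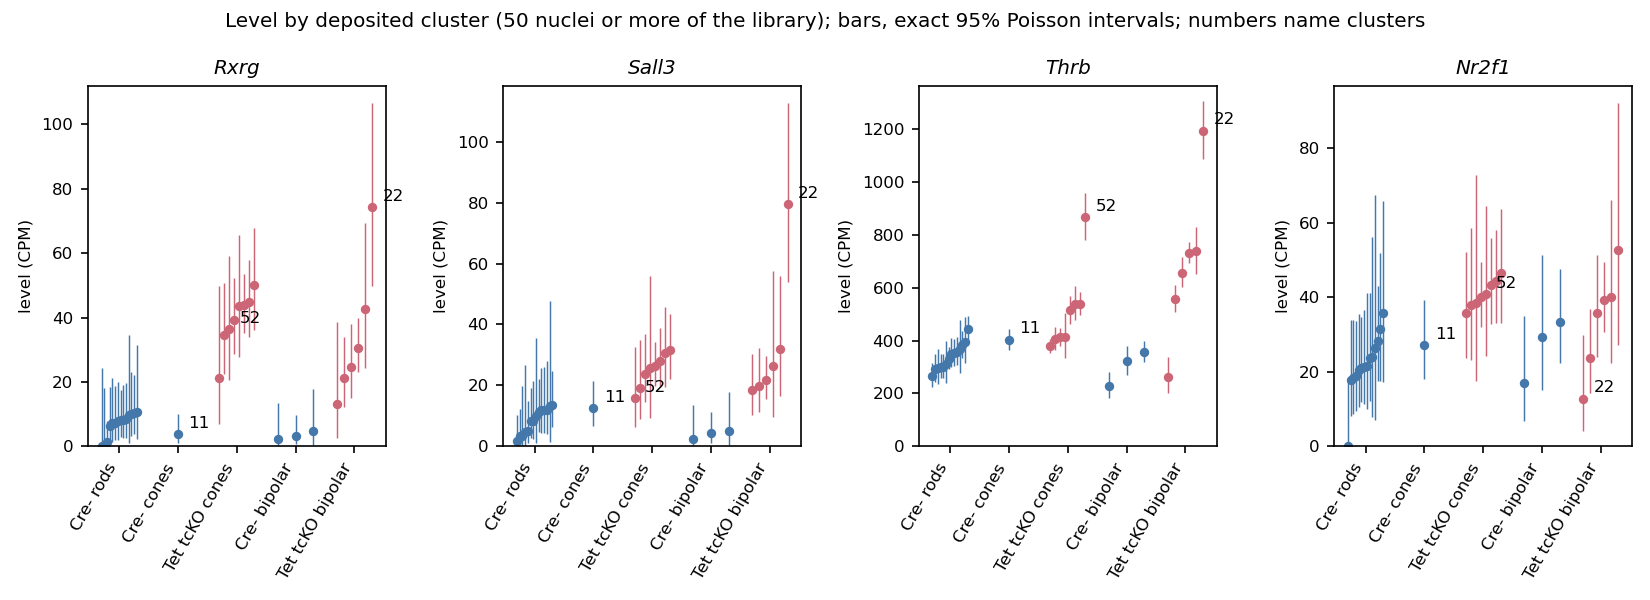
Level in CPM (y axis, from 0) of Rxrg, Sall3, Thrb and Nr2f1 in each deposited cluster with 50 nuclei or more of a library, grouped by annotation (x axis), with exact 95% Poisson intervals. Clusters 11, 22 and 52 are numbered where they occur, and cluster 22 lies above all other clusters for Rxrg, Sall3 and Thrb, at 74.2, 79.4 and 1193 CPM.

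Levels among photoreceptor clusters showed that the differences were not carried by a single one. Over 8 Tet tcKO cone clusters, Rxrg ran from 21.3 CPM (cluster 54, 5 UMIs) through a median of 41.5 to 50.2 CPM (cluster 55), and over 14 Cre− rod clusters from 0 (cluster 25) through 7.97 to 10.7 CPM (cluster 44, 3 UMIs). The ranges of these point values did not overlap. Sall3 ran from 15.9 CPM (cluster 52, 7 UMIs) to 31.6 CPM in the former. In the latter it ran from 1.84 to 13.4 CPM (cluster 26, 10 UMIs), again without overlap. The facing ends of these ranges rest on 3 to 10 UMIs, and the gaps were not tested against counting error. How many of all genes show such a gap was not counted. These clusters are parts of the same library and are not replicates. Thrb ran from 378 to 866 CPM in Tet tcKO cone clusters and from 268 to 442 CPM in Cre− rod clusters, which overlap, as did the ranges of Rora, Rorb and Nr2f2. For Nr2f1 the highest Cre− rod cluster (35.8 CPM) and the lowest Tet tcKO cone cluster (35.9 CPM) nearly met.

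Cone cluster 52 of Tet tcKO differed from the other 7 in its receptor levels. Its 211 nuclei had the highest Thrb (866 CPM), Rora (2618 CPM) and Rorb (993 CPM) and the lowest Sall3 (15.9 CPM, 7 UMIs) of the 8 clusters. Their Arr3 (911 CPM), Gnat2 (195 CPM) and Opn1sw (402 CPM) were the lowest of the 8. These levels are given as a description, since the clustering used all genes.

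Among nuclei annotated as bipolar, cluster 22 held 214 Tet tcKO and 8 Cre− nuclei and failed the marker check. In its Tet tcKO nuclei, Thrb stood at 1193 CPM (95% interval 1087 to 1306), Rxrg at 74.2 CPM (49.7 to 107) and Sall3 at 79.4 CPM (53.9 to 113), higher than in any cone cluster. Nr2f1 (12.8 CPM), Rora (1731 CPM) and Rorb (456 CPM) were the lowest of the 6 Tet tcKO bipolar clusters. The cone channel gene Cngb3 was among its leading genes, at 7153 CPM, and Arr3 stood at 3553 CPM and Opn1mw at 305 CPM, each above the Tet tcKO cone levels of 2043, 2003 and 208 CPM. Relative to all other nuclei, the median log2 ratio of cone markers was 1.30 and of bipolar markers -1.09, so the annotation went against the markers, and the nuclei are called cluster 22 here. The 8 Cre− nuclei had 25 Thrb UMIs, 1721 CPM (1114 to 2541), and 0 of Rxrg.

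No genotype ratio is given for the bipolar annotation, since 4 of its 9 clusters failed the marker check. Rxrg ran from 2.44 to 4.91 CPM over 3 Cre− bipolar clusters and from 13.2 to 42.8 CPM over the 5 Tet tcKO clusters other than 22. Thrb ran from 228 to 356 CPM in the former and, over all 6 Tet tcKO clusters, from 264 to 1193 CPM. Relative to photoreceptors of the same library, the cone transcript Arr3 was high in the bipolar nuclei of both libraries. It stood at 718 CPM over all Cre− bipolar nuclei, 95.1% of its level in photoreceptors, and at 1529 CPM over all Tet tcKO bipolar nuclei, 76.4%. The part of cone transcripts in the Rxrg and Thrb levels was not tested.

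Tet tcKO cones were also divided by the opsin whose UMIs they contained after each nucleus was thinned to 500 UMIs. Of 3225 Tet tcKO cones, 747 had UMIs of Opn1sw only at that depth, 249 of Opn1mw only, 94 of both and 2135 of neither. A nucleus with neither may thus have held opsin UMIs before thinning. Levels of the 7 genes in these groups used all UMIs. For 5 of the 7 genes the interval of the ratio between Opn1mw only and Opn1sw only held 0, and for Thrb and Nr2f1 it did not. Rxrg stood at 41.0 CPM (32.1 to 51.6) with Opn1sw only and at 38.0 CPM (23.8 to 57.5) with Opn1mw only. Thrb, whose product favours Opn1mw, stood at 443 CPM (413 to 475) with Opn1sw only and 510 CPM (453 to 571) with Opn1mw only, for a log2 ratio of 0.20 (0.004 to 0.40). Sall3 stood at 24.2 (17.5 to 32.5) and 20.7 CPM (10.7 to 36.2). Nr2f1 was higher with Opn1mw only, at 38.8 (69 UMIs) and 62.2 CPM (36 UMIs), for a log2 ratio of 0.68 (0.06 to 1.28). Nr2f2 stood at 31.5 (56 UMIs) and 19.0 CPM (11 UMIs), for a log2 ratio of -0.73 (-1.81 to 0.22), which leaves its direction undetermined. After the same thinning, Opn1sw UMIs were also found, without Opn1mw, in 63 of 1043 Tet tcKO amacrine nuclei. A single opsin UMI thus does not define a cone type at this depth.

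Over all nuclei, Opn1sw stood at 64.6 CPM in Cre− against 391 CPM in Tet tcKO, for a log2 ratio of 2.60 (2.49 to 2.71), and Opn1mw at 105 and 142 CPM, for a log2 ratio of 0.44 (0.34 to 0.54). The 2 opsins therefore differed unequally, by intervals that lie far apart. The interval of Rxrg overlapped that of Opn1sw, and the interval of Thrb lay between those of the opsins.

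The all-nuclei differences were divided between the shares of classes and the levels inside each class, with rods and cones merged and the other classes taken as annotated, bipolar clusters that failed the marker check included. Pooled photoreceptors made up 74.5% of Cre− and 47.8% of Tet tcKO nuclei, bipolar nuclei 9.16% and 24.4%, and amacrine cells 5.48% and 15.4%. The difference for Rxrg was 25.8 CPM, of which the level part was 109% and the share part -8.99%, that is, the shares alone would have lowered it. Sall3 and Nr2f1 also had negative share parts, -13.3% and -9.50%. The level part was 95.9% of the Thrb difference, 89.1% for Rorb and 77.0% for Nr2f2. Rora differed from the rest, with 66.8% of its 385 CPM from shares and 33.2% from levels. At Cre− class shares the log2 ratio of Rora was 0.05 and that of Rxrg 2.42.

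**Figure D4:**
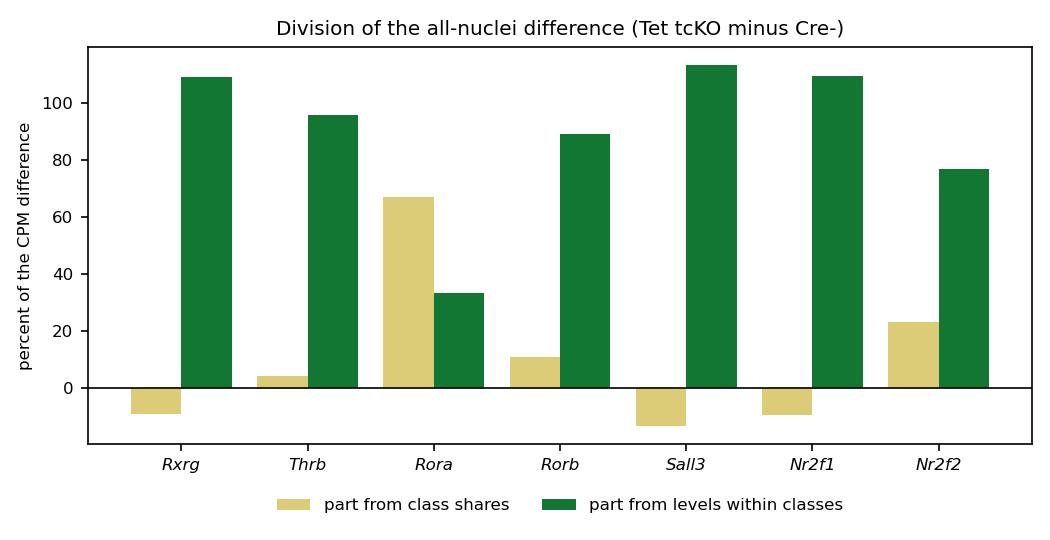
Division of the all-nuclei CPM difference (Tet tcKO minus Cre−) of each of the 7 genes (x axis) between class shares and levels inside classes, as percent of the difference (y axis, from 0). The level part is the larger for 6 genes and the share part is the larger for Rora, at 66.8%.

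By class, photoreceptors gave 19.4 CPM of the Rxrg level part and the bipolar annotation 5.97 CPM. For Thrb the order depended on cluster 22. With that cluster in the bipolar annotation, 78.5 CPM came from bipolar nuclei, 65.9 from photoreceptors and 24.9 from amacrine cells. With it counted among photoreceptors, as its cone markers have it, 66.7 CPM came from bipolar nuclei and 86.4 from photoreceptors, and for Rxrg 4.80 and 20.8 CPM. In UMIs, photoreceptors held 69.3% of Thrb in Cre− and 39.4% in Tet tcKO, and 64.6% and 57.3% of Rxrg. Of the UMIs of all genes together they held 65.8% and 44.7%. Thrb RNA in Tet tcKO retinas thus lay mostly outside nuclei annotated as photoreceptors, as did the RNA of all genes together. Rxrg RNA in Tet tcKO lay mostly within them, while its Cre− share was near that of all genes.

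Genes of related pathways were read over all nuclei by the same 2-fold limit. Beside the count of each list, the shares over all 11158 genes were 3.18% higher and 2.48% lower. Of 12 related nuclear receptor genes at 10 CPM or more, 0 were higher and 2 lower (median log2 ratio 0.09, against 0.15 for all genes). These were Nr2e3, a rod receptor that represses cone genes, at 238 and 85.8 CPM (log2 ratio -1.47), and Esrrb, a receptor needed for rod survival, at 320 and 113 CPM (-1.499). Thra, the other thyroid hormone receptor gene, stood at 133 CPM in both libraries (0.00, -0.10 to 0.09), and Rxra and Rxrb, the other RXR genes, at 14.4 and 10.9 CPM and at 27.1 and 30.6 CPM. Rxrg was thus the one RXR gene with a 2-fold difference.

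Of 6 measured genes that handle thyroid hormone, 2 were higher and 1 lower (median 0.79). Crym, which binds the hormone inside cells, was among those higher, at 25.2 and 57.1 CPM (log2 ratio 1.18, 0.99 to 1.38). Slc16a10, a transporter of the hormone, stood at 14.9 and 28.6 CPM (0.95). Ttr, a hormone carrier that is abundant in the neighbouring pigment epithelium, stood at 17.5 and 8.02 CPM (-1.12, -1.45 to -0.80). Dio2, which makes the active hormone, fell short of 2-fold at 12.5 and 7.11 CPM (-0.82).

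Of 2 tested genes of retinoic acid handling, 0 passed in either direction (median -0.17). Aldh1a1, which makes retinoic acid, was low in both libraries, at 12.4 and 15.0 CPM. The retinoic acid hydroxylase gene Cyp26a1 was below the 10 CPM limit over all nuclei, but in pooled photoreceptors it had 8 UMIs (1.06 CPM) in Cre− against 81 (10.9 CPM) in Tet tcKO, for a log2 ratio of 3.37 (2.33 to 4.63), and Crabp1, a binding protein of retinoic acid, 5.94 and 12.8 CPM (1.11, 0.58 to 1.66). Of 11 co-regulators, 0 were 2-fold apart (median 0.15). The most abundant were Ncor1, a co-repressor of unliganded receptors, at 507 and 381 CPM (-0.41), and Ncoa1, a co-activator, at 324 and 289 CPM (-0.16).

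Of 3 tested dorsoventral factors, 0 passed (median -0.40). Tbx2, of the dorsal retina, stood at 61.9 and 46.9 CPM (-0.40), and Vax2, of the ventral retina, at 35.3 and 24.8 CPM (-0.51). Of 15 tested factors of photoreceptor genesis, 2 were higher and 2 lower (median 0.05). Prdm1, which favours photoreceptor over bipolar fate, stood at 38.5 and 135 CPM (1.81, 1.66 to 1.96), and Atoh7, a factor of RGC and cone precursors, had 18 UMIs in Cre− against 252 in Tet tcKO (3.28, 2.59 to 4.06). Nrl, which sets rod fate, stood at 347 and 128 CPM (-1.44), and Samd11, a silencer of non-rod genes, at 432 and 163 CPM (-1.41). Casz1, the most abundant of the list, stood at 753 and 562 CPM (-0.42).

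Cone output genes differed most, with 8 of 10 higher and 1 lower (median 1.38). Cngb3, the modulatory channel subunit, stood at 229 and 1909 CPM (log2 ratio 3.06, 3.00 to 3.12), Gnat2 at 74.4 and 317 CPM (2.09), Gngt2, a transducin γ subunit, at 38.1 and 192 CPM (2.33), and Cnga3, the other channel subunit, at 4.52 and 13.5 CPM (1.58). Arr3 (1.12), Gnb3 (1.18) and Pde6c (1.03) were nearer to 2-fold. Pde6h, the inhibitory subunit of the cone phosphodiesterase, went the other way, at 31.8 and 12.2 CPM (-1.39, -1.64 to -1.13). The lists were chosen with results of these data known, and their counts are not independent evidence.

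The genes most like each of the 7 were taken by Pearson correlation of log2(CPM + 10) over 12 populations, among 6855 genes. Each population was an annotated class of 1 library. The populations share 2 libraries and differ in depth, so these are descriptions. Rxrg was most like Flna (r = 0.95), Eya1 (0.93) and Dolpp1 (0.89), and Thrb most like Prtg (0.91), Epc1 (0.91) and the cone gene Cngb3 (0.90). Sall3 was most like Nlk (0.92), Dixdc1 (0.92) and Arid1a (0.88). For Rora the nearest were Acyp2 (0.95), Prdm11 (0.92) and Zfp423 (0.91), for Rorb Vat1l (0.96), Trim9 (0.94) and Timp2 (0.93), for Nr2f1 Mid1 (0.97), Col9a2 (0.96) and Ythdf1 (0.96), and for Nr2f2 Jph1 (0.94), Ldb2 (0.93) and Hlf (0.93). None of the 7 was among the 3 nearest of another.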

How the data were processed

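Nuclei were captured with the PIPseq 3′ kit and, per the labels, reads were processed with pipseeker 3.3.0 against GRCm39. The authors removed ambient RNA with CellBender, took barcodes at a cell probability of 0.99, and set limits of 500 and 10000 transcripts per nucleus and of 20% for mitochondrial ones. Whole UMI counts after these steps were deposited. The mitochondrial percent and the size factor, a ratio, are the authors' values and set no level here. The deposited gene table gives a signal per genotype, a mean over nuclei of counts scaled to a fixed total, reproduced from the matrices for 32227 of 32227 genes. Cluster numbers and cell types are the authors' annotation, and doublets were not called again here.

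UMIs were summed per population and library and divided by the total (CPM). Intervals are exact at 95% (Poisson for levels, conditional for ratios, Clopper-Pearson for shares). A count of 0 was set to 3 for the point value of a ratio, and ratios were left out where neither count was above 3. Counts of genes 2-fold apart used genes at 10 CPM or more. Python 3.11.15, numpy 2.4.6, scipy 1.17.1 and pandas 2.3.3 were used, with edgeR 4.0.16 and DESeq2 1.42.0 for other scalings. On Poisson counts simulated for 10714 genes over all nuclei, 95.4% of intervals held the true ratio. Of genes given changes larger than 2-fold, 200 of 200 were recovered. These counts followed the model of the intervals and held no variation between animals, libraries or nuclei. The simulation therefore checks the arithmetic and not the comparison of genotypes. The 7 genes and all lists were chosen with earlier results of these data known. Named genes are the 7, list members 2-fold apart, the 2 most abundant of each list, the 2 opsins and the 3 genes most like each of the 7, and Thra, Rxra, Rxrb, Slc16a10, Dio2, Cyp26a1 and Crabp1 were added after their values were seen. The motifs were also chosen without a fixed rule. The study's model over single nuclei was not repeated. Values of some members of the gene lists are not reported here.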

Additional observations from a re-analysis of the deposited data

Results flagged for a closer look

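Rora had a log2 ratio (Tet tcKO over Cre−) of -0.075 in pooled photoreceptors, against 0.18 in amacrine cells and 0.16 in RGCs, and none of these intervals held 0. Nr2f1 had -0.17 in amacrine cells against 0.85 in photoreceptors and 0.40 in RGCs, and Nr2f2 had -0.38 in RGCs against 0.61 in photoreceptors and 0.64 in amacrine cells. For Nr2f1 and Nr2f2 the intervals in amacrine cells and RGCs held 0. Each of these stood out because the single pair of libraries moved in opposite directions in different classes, and the differences between classes were not tested.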

How the results depend on the processing

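No paired analysis was possible because each genotype had 1 library. Over 10 alternatives for all nuclei and 12 for pooled photoreceptors, the log2 ratio of Rxrg stayed between 2.01 and 2.42 and between 2.43 and 3.43, and that of Sall3 between 1.04 and 1.61 and between 0.94 and 1.63. The median of the 7 stayed within the counting interval of the gene at the median in every alternative. Of 154 single-gene values, 115 stayed within their counting interval, 34 moved beyond it in the same direction and 5 reversed. With each gene counted once per nucleus, which by construction limits genes with several UMIs per nucleus, Rora over all nuclei was at -0.48, Rorb at -0.10, Rorb in photoreceptors at -0.22, and Thrb in photoreceptors at 0.01. In nuclei annotated as cones, Rora was at 0.025 and Rorb at -0.006 (the cause was not tested). Genes 2-fold apart numbered 1868 at a filter of 1 CPM and 262 at 50 CPM over all nuclei, against 632 at 10 CPM, and 2845 and 379 in photoreceptors, against 1052, as more or fewer genes were tested.

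The share of photoreceptor nuclei with an Rxrg UMI was 0.93% in Cre− and 9.01% in Tet tcKO without thinning and 0.80% and 4.51% at 1000 UMIs. The share with a Thrb UMI was 37.3% and 61.4%, and 31.2% and 37.3%. At 1 CPM over all nuclei, where 1049 of 17952 genes were higher and 819 lower, 2 of 9 retinoic acid genes were higher and 0 lower, 0 of 5 dorsoventral genes were higher and 1 lower, and 4 of 21 photoreceptor genesis factors were higher and 3 lower. In pooled photoreceptors, where 6.67% of all genes were higher and 2.58% lower, 2 of 4 retinoic acid genes were higher. There, 0 of 6 thyroid hormone handling and 0 of 10 cone output genes were lower. With cluster 22 counted among photoreceptors, chosen after seeing the data, the level part of the difference was 109.7% for Rxrg, 100.3% for Thrb, 38.7% for Rora, 89.4% for Rorb, 116.9% for Sall3, 107.2% for Nr2f1 and 81.7% for Nr2f2. Depth limits Rxrg, Sall3, Nr2f1 and Nr2f2 outside photoreceptors, where classes had from 0 to 164 UMIs.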
